A study of Mus musculus with 6 samples.

Results

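The genes described here are 10 regulators and storage genes of fat cell biology, followed in mouse C2C12 myoblasts by RNA sequencing. They were taken by name, and were chosen with earlier results of these data known. The 10 are 3 peroxisome proliferator-activated receptors (Pparg, Ppara, Ppard), 3 CCAAT/enhancer-binding proteins (Cebpa, Cebpb, Cebpd), the zinc finger factor Klf15 and 3 genes of lipid handling (Fabp4, Plin2, Lpl). They are 10 of the 24809 genes in the deposited table, and all 10 were found in it. C2C12 cells overexpressing the homeobox gene Msx1 (n = 3) were set against control C2C12 cells (n = 3), whose column headings name a vector. C2C12 is a line of myoblasts that can fuse into myotubes, and every library of both groups carries the label myoblast. The labels do not give the construct, its promoter, the number of clones, the culture stage or whether each replicate was its own culture. The p-values therefore cover only the variation among these 6 libraries, which may be technical. A difference in stage or density between the groups cannot be told apart from one that follows Msx1, and fewer cells of a type cannot be told apart from less RNA per cell.

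PPARs are nuclear receptors for fatty acids and their derivatives that bind DNA as pairs with retinoid X receptors. In fat cell formation, C/EBP-beta and C/EBP-delta come early and C/EBP-alpha and PPAR-gamma later, and the later factors keep each other switched on and drive genes of lipid uptake and storage. Muscle uses the same lipid handling genes to take up and burn fatty acids, with PPAR-delta as the main receptor, and myoblasts given PPAR-gamma and C/EBP-alpha are known to turn into fat cells.

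Values are FPKM (fragments per kilobase of transcript, scaled to each library's mapped fragments) as the authors deposited them, summed over the transcripts of a gene. Changes are differences of log2(FPKM + 1), Msx1 overexpression minus control, with the standard error (SE) and adjusted p of limma fitted across all 12371 genes whose average over the 6 libraries reached 0.5 FPKM. This scale understates the change of low genes. Depth, estimated from the step between low FPKM values, was 21.0 to 22.9 M fragments in Msx1 libraries and 18.5 to 23.8 M in control libraries. Msx1 itself stood at 1004, 943.7 and 912 FPKM in Msx1 libraries against 7.99, 7.13 and 7.54 FPKM in control libraries, as the labels say. Of 5 myoblast markers, 5 were detected in every library, and 3 of them were called lower, beside 32.4% of all genes tested. The myogenic factor gene Myf5 fell most, at 1.53 to 1.70 FPKM in Msx1 and 8.55 to 9.25 FPKM in control libraries. Des (log2 change -0.269) and Chrna1 (-0.165) fell little, and Myod1 (-0.113) and Cdh15 (0.127) were not called. With median-of-ratios scaling, 1 of the 5 was called higher and 2 lower. Of 9 adipocyte markers, Lep, Plin1, Cidec and Retn were listed at 0 in every library, and the 9 genes together summed to 5.67 to 6.93 FPKM in Msx1 and 4.72 to 5.42 FPKM in control libraries, most of it from the hormone-sensitive lipase gene Lipe, which muscle also uses.

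Pparg and Cebpd fell, Fabp4 and Lpl fell, and Klf15 and Plin2 rose in Msx1 cells, while Ppard, Cebpa and Cebpb did not pass the test. The 9 genes that passed the minimum thus split into 2 called higher, 4 called lower and 3 not called. Over all 12371 genes tested, 54.4% were called, 22.0% higher and 32.4% lower, so the 6 calls among 9 genes are near the share over all genes and are not a result about these genes. Groups did not overlap for 7 of the 9, against 62.3% of all genes tested. The median change of the 9 was -0.19, beside -0.07 for all genes tested. Ranked by change among all genes tested, Cebpd lay at percentile 1.5, Pparg at 2.1 and Fabp4 at 3.6, while Klf15 lay at percentile 97.5.

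**Figure D1:**
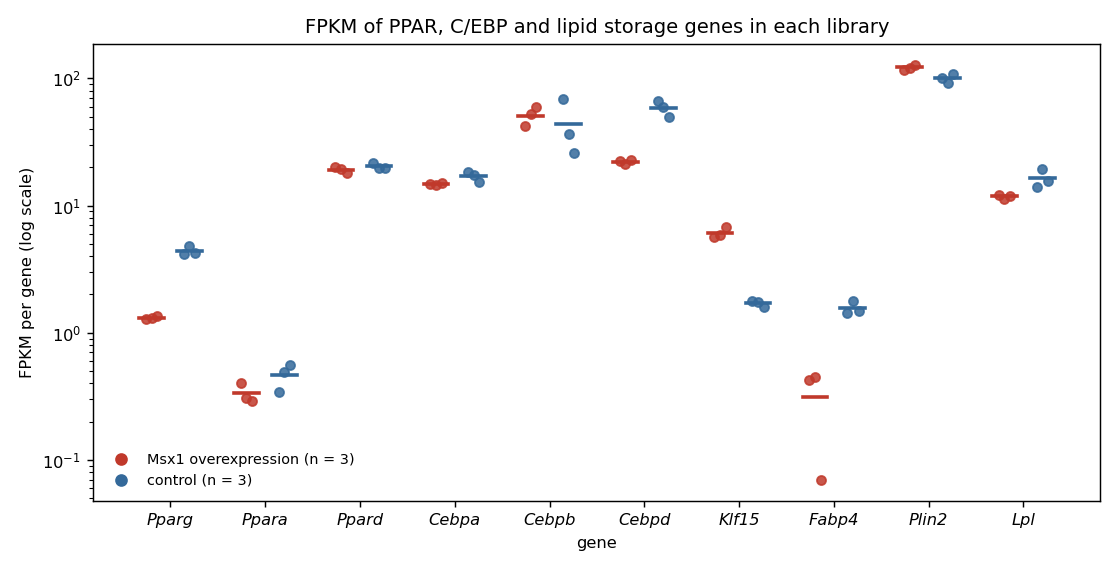
FPKM per gene on a log scale, with 1 point per library (Msx1 overexpression red, control blue, n = 3 each) and a bar at each group mean. Pparg, Cebpd and Fabp4 lie lower and Klf15 higher in Msx1 libraries without overlap, while the control points of Cebpb spread from 26.1 to 68.8 FPKM.

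The promoter sequences that matter for the account below are those of an upstream and an internal start of Pparg, because these starts make different proteins, and those of Klf15 and Plin2, the 2 members that rose. They are shown from 250 bases before to 30 bases from the start site on, 5′ to 3′ on the gene's strand, from RefSeq on GRCm38.p6, with motif matches in capitals. The motifs searched on both strands were CCAAT (the CCAAT box), CACGTG (an E-box), TTGCNNAA (a C/EBP core), TAATTG (a homeodomain motif of the kind Msx1 binds) and the direct repeat bound by PPAR pairs (AGGTCA, any base, AGGTCA).
Pparg upstream start, chr6:115360894-115361173, plus strand: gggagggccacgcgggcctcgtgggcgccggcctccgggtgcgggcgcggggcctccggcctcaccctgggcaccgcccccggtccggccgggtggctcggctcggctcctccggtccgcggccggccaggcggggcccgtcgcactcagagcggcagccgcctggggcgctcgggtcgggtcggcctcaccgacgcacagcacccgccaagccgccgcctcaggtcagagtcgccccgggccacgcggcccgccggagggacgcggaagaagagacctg
Pparg internal start, chr6:115421816-115422095, plus strand: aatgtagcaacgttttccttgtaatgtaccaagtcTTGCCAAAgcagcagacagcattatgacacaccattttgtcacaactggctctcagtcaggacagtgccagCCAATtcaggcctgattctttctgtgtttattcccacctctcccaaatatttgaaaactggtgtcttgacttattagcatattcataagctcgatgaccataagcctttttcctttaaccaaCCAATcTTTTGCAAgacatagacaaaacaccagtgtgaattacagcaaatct
Klf15, chr6:90462326-90462605, plus strand: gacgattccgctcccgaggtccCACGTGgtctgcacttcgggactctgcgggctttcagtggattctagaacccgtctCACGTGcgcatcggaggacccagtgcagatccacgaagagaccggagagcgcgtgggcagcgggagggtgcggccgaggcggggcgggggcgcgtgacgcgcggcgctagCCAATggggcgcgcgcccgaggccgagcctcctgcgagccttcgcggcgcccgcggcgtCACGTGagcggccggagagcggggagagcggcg
Plin2, chr4:86670030-86670309, minus strand: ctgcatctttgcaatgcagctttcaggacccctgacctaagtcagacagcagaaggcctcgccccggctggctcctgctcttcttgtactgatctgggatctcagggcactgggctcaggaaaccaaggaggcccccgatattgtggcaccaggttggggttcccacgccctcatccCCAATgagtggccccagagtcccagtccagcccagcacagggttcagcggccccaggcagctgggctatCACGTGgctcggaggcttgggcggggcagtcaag
The upstream Pparg window shown held none of the 5 motifs and was 81.1% G or C. Another upstream Pparg window, not shown, has its start at 115362349. It was 63.6% G or C and held a CCAAT box 83 bases before that start. The window shown has its start at 115361144, while GENCODE starts the upstream transcript NM_001127330 at 115360951. The internal window, 40.4% G or C, held the C/EBP core at 215 bases before the start (TTGCCAAA) and again at 16 bases before it (TTTTGCAA, read on the other strand), beside CCAAT boxes at 144 and 22 bases before the start. Klf15 had 3 E-boxes, at 228, 172 and 3 bases before its start, and Plin2 had 1, at 4 bases before its start, and each also had a CCAAT box. None of the matches in the windows shown overlapped another. Windows were found for 7 of the 10 genes, 9 windows in all, and for none of Cebpd, Fabp4 and Lpl, which all fell. Pparg was thus the only gene called lower with a window, so members that rose and fell cannot be compared for motifs. Klf15 and Plin2 were the only 2 of these 9 windows with an E-box, which 6.79% of 32851 mouse promoter windows of the same length hold. The C/EBP core was in 1 of the 9 windows and in 10.4% of all windows, and CCAAT in 5 of the 9 and in 36.1% of all windows. The homeodomain motif was in 0 of the 9 windows and in 7.65% of all, and the PPAR repeat in 0 of the 9 and in 0.0365% of all. These are matches of letters within a short window and say nothing of whether a factor binds.

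PPAR-gamma is the receptor without which fat cells do not form. Its gene Pparg (chromosome 6, 115360879 to 115490404, GRCm38) stood at 1.28, 1.30 and 1.36 FPKM in Msx1 libraries against 4.15, 4.81 and 4.24 FPKM in control libraries. All 3 Msx1 libraries lay below all 3 control libraries, and the spread within each group was small beside the gap. The mean in Msx1 cells was 0.299 of that in control cells, a log2 change of -1.22 (SE 0.07, adjusted p = 4.97e-06). The level was low in both groups, as about 58.9 to 60.8 fragments stood behind each Msx1 value and 189.3 to 214.3 behind each control value. The table lists 4 Pparg transcripts, and 2 of them (NM_001308352 and NM_001308354) were at 0 in every library.

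All Pparg FPKM of control cells was assigned to an upstream start. The transcript that encodes the shorter protein of 475 residues (NM_001127330), known as PPAR-gamma 1 and used by many tissues, held all Pparg FPKM in the 3 control libraries and in Msx1 replicates 1 and 3. The transcript of the internal start (NM_011146) encodes the longer protein of 505 residues, PPAR-gamma 2, the form that marks fat cells. It was listed at 0 everywhere except in Msx1 replicate 2, at 0.529 FPKM beside 0.772 FPKM for NM_001127330 in the same library. In a fit over transcripts, where 32.3% of 17764 were called, NM_001127330 fell with a log2 change of -1.34 (SE 0.14, adjusted p = 0.00116). The 2 transcripts share most of their exons, so the division of reads between them is an estimate, and the gene sum of Msx1 replicate 2 (1.30 FPKM) matched its group.

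PPAR-delta, the receptor that drives fatty acid burning in muscle, was the most abundant of the 3. Ppard (chromosome 17, 28232754 to 28301469) stood at 19.9, 19.3 and 18.1 FPKM in Msx1 libraries against 21.6, 19.6 and 19.8 FPKM in control libraries. The groups overlapped, and the log2 change of -0.09 (95% interval -0.23 to 0.06, adjusted p = 0.271) turned to 0.02 with equal library totals without Msx1. A correction for transcript length and GC content, chosen after seeing the data, gave -0.29 and adjusted p = 7.2e-04. PPAR-alpha, the receptor of fasting liver, was near the limit of detection. Its gene Ppara (chromosome 15, 85734910 to 85806851) stood at 0.402, 0.308 and 0.293 FPKM in Msx1 libraries against 0.343, 0.489 and 0.563 FPKM in control libraries. With a mean of 0.40 FPKM over the 6 libraries it was below the minimum for the fit, and p was 0.2 in an exact permutation test (two-sided, n = 3 each).

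Pparg held 5.94%, 6.22% and 6.90% of the summed PPAR FPKM in Msx1 libraries against 15.9%, 19.3% and 17.2% in control libraries. Ppard held 92.0% ± 0.374 in Msx1 and 80.7% ± 2.02 in control cells (SD, n = 3 each). The groups did not overlap for either share, with p = 0.1 for both in an exact permutation test (two-sided, n = 3 each), the smallest p that 3 against 3 libraries allow. Shares within a family add up to the whole, so the 2 are not separate results. The family sum was 20.8 ± 0.94 FPKM in Msx1 and 25.2 ± 0.76 FPKM in control cells (SD, n = 3 each; exact permutation p = 0.1).

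**Figure D2:**
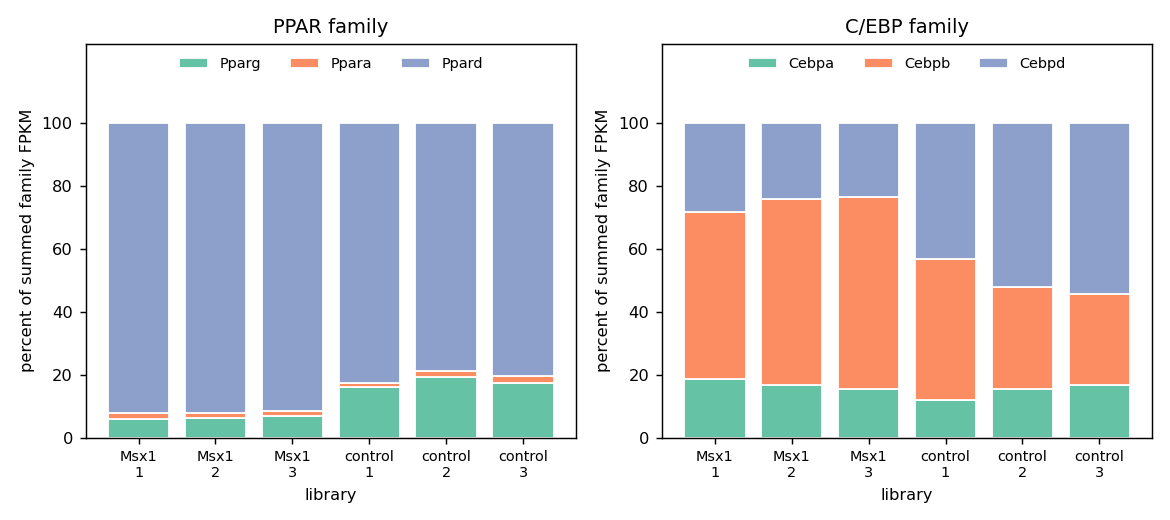
Percent of the summed FPKM of the PPAR family (left) and of the C/EBP family (right) held by each gene, 1 bar per library. Pparg takes 5.94% to 6.90% in Msx1 and 15.9% to 19.3% in control libraries, and Cebpd takes 23.6% to 28.4% in Msx1 and 43.1% to 54.5% in control libraries.

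C/EBP-delta, an early factor of fat cell formation that is also induced by inflammatory signals, had the most negative log2 change of the 9 tested genes at a pseudocount of 1. Cebpd (chromosome 16, 15887286 to 15889545) stood at 22.5, 21.1 and 22.9 FPKM in Msx1 libraries against 66.1, 59.3 and 49.5 FPKM in control libraries. The groups lay far apart, although the control libraries were less even than the Msx1 libraries. The mean in Msx1 cells was 0.38 of that in control cells (log2 change -1.35, SE 0.10, adjusted p = 1.56e-05). In GENCODE, the end of Cebpd overlaps Spidr, a gene on the opposite strand, from 15889224 to 15891031. Only part of that stretch lies within the Cebpd interval given above. Spidr stood at 7.41 ± 0.434 FPKM in Msx1 and 10.2 ± 1.06 FPKM in control cells (SD, n = 3 each; log2 change -0.41, adjusted p = 0.00377), and reads of the overlap cannot be told apart without strand.

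C/EBP-beta, the other early factor, was too uneven in control cells to be called. Cebpb (chromosome 2, 167688915 to 167690432) stood at 41.9, 52.0 and 59.1 FPKM in Msx1 libraries against 68.8, 36.7 and 26.1 FPKM in control libraries. Control replicate 1 was the highest of all 6 libraries and the other control libraries were the lowest, so the Msx1 values lie within the range of the controls. The log2 change was 0.31 with a 95% interval of -0.40 to 1.02 (adjusted p = 0.42), which leaves room for a change of either sign. Without control replicate 1 it was 0.69 (adjusted p = 0.0132), with sample weights 0.81 (adjusted p = 0.00422), and without control replicate 3 it was 0.01 (adjusted p = 0.987). Tmem189, which overlaps Cebpb on the opposite strand, was even among the control libraries at 33.4, 33.6 and 33.5 FPKM, and stood at 38.7, 40.4 and 40.0 FPKM in Msx1 libraries.

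C/EBP-alpha, the partner of PPAR-gamma in mature fat cells, was present in myoblasts of both groups. Cebpa (chromosome 7, 35119293 to 35121928) stood at 14.9, 14.5 and 15.0 FPKM in Msx1 libraries against 18.3, 17.5 and 15.3 FPKM in control libraries. The groups did not overlap but were close, and the log2 change of -0.19 (95% interval -0.35 to -0.02) missed the threshold with adjusted p = 0.0573. It passed without control replicate 3 (-0.26, adjusted p = 0.0133), and the same correction for length and GC content gave -0.35 (adjusted p = 8.85e-04). It was smaller with median-of-ratios scaling (-0.11, adjusted p = 0.232), with equal totals without Msx1 (-0.08, adjusted p = 0.392) and with sample weights (-0.06, adjusted p = 0.28). All 5 of its transcripts matched the same single-exon GENCODE model, and the table divides them unevenly. NM_007678 held the whole gene value in Msx1 replicates 1 and 2 and in control replicates 1 and 2. In the third replicate of each group, all 5 transcripts were listed at near equal values, 2.94 to 3.10 FPKM in Msx1 and 2.98 to 3.20 FPKM in control, so only the gene sum can be compared.

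**Figure D3:**
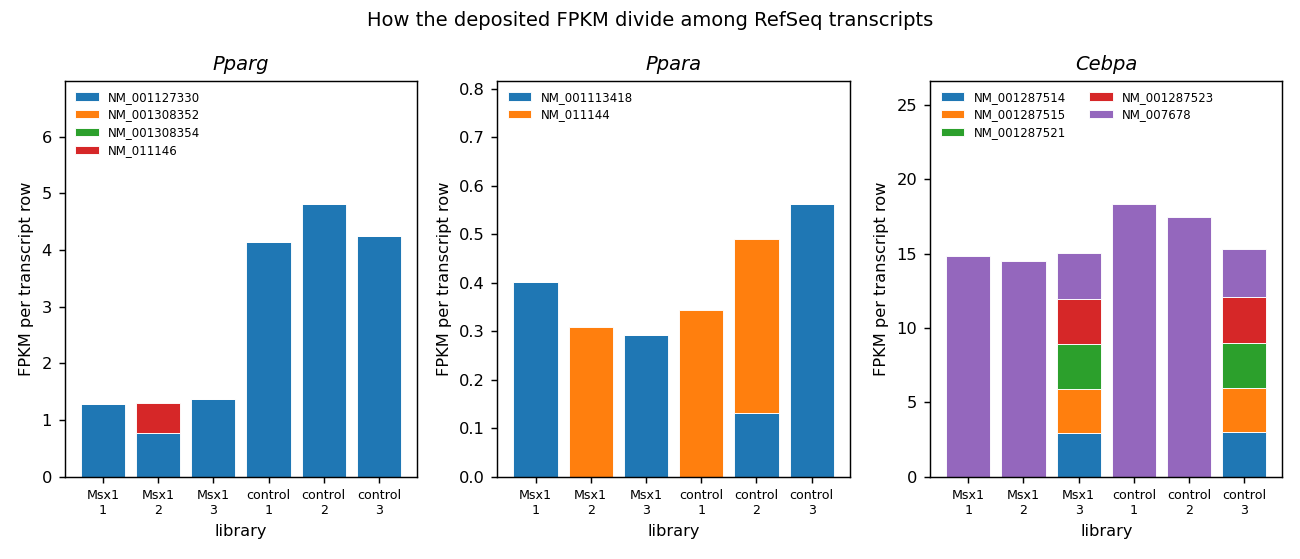
FPKM of the RefSeq transcripts of Pparg, Ppara and Cebpa as deposited, stacked, 1 bar per library and a separate linear axis for each gene. The longer form NM_011146 of Pparg appears in Msx1 replicate 2 alone, and Cebpa is divided among 5 transcripts in the third replicate of each group.

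Among the C/EBPs, Cebpd held 28.4%, 24.1% and 23.6% of the summed C/EBP FPKM in Msx1 libraries against 43.1%, 52.3% and 54.5% in control libraries. Cebpb held 52.8%, 59.4% and 60.9% in Msx1 libraries against 44.9%, 32.3% and 28.7% in control libraries. Neither share overlapped between groups (exact two-sided permutation p = 0.1 for both, n = 3 each), while the Cebpb level itself overlapped. Shares within a family add up to the whole, so the 2 are not separate results, and the higher Cebpb share does not show a change of Cebpb. The share of Cebpa was 16.9% ± 1.66 in Msx1 and 14.7% ± 2.50 in control cells (SD, n = 3 each; exact permutation p = 0.4). The family sum was 87.9 ± 8.87 FPKM in Msx1 and 119 ± 31.6 FPKM in control cells (SD, n = 3 each; exact permutation p = 0.2).

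KLF15, a Krüppel-like factor that promotes fat cell formation and is induced by glucocorticoids and fasting in muscle, moved against Pparg. Klf15 (chromosome 6, 90461043 to 90491803) stood at 5.62, 5.91 and 6.74 FPKM in Msx1 libraries against 1.79, 1.74 and 1.58 FPKM in control libraries. Each Msx1 library exceeded each control library by a wide margin, and the mean in Msx1 cells was 3.58 times that in control cells (log2 change 1.39, SE 0.08, adjusted p = 3.97e-06). The transcript NM_023184, whose annotated start is that of the promoter shown above, carried 5.41 to 6.61 FPKM in Msx1 and 1.58 to 1.77 FPKM in control libraries. A second transcript (NM_001355668) was at 0.127 to 0.261 FPKM in Msx1 libraries, and in control libraries it was at 0.021 FPKM in 1 and listed at 0 in 2.

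FABP4, the fatty acid carrier of fat cells and a classic PPAR-gamma target, was scarce. Fabp4 (chromosome 3, 10204342 to 10208616) stood at 0.426, 0.45 and 0.07 FPKM in Msx1 libraries against 1.44, 1.79 and 1.49 FPKM in control libraries. The groups did not overlap, and the log2 change was -0.98 (SE 0.13, adjusted p = 4.02e-04), or -2.19 with a pseudocount of 0.1 in place of 1. These values rest on about 8.4, 9.2 and 1.3 fragments in Msx1 libraries and 29.3, 29.7 and 31.8 fragments in control libraries, so the size of the decrease is loosely set. Each Msx1 value was below 0.5 FPKM, so Fabp4 reached the minimum for the fit only through its control libraries.

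Perilipin 2, the coat protein of lipid droplets in cells other than fat cells, was the most abundant of the 10 genes. Plin2 (chromosome 4, 86626910 to 86670217) stood at 117, 121 and 128 FPKM in Msx1 libraries against 101, 92.2 and 107 FPKM in control libraries. The lowest Msx1 library lay above the highest control library, and the mean was 1.22 times that of control cells (log2 change 0.29, SE 0.07, adjusted p = 0.00846). With sample weights the change was 0.19 (adjusted p = 0.00729). Lipoprotein lipase, the secreted enzyme that frees fatty acids from circulating triglyceride, moved the other way. Lpl (chromosome 8, 68880555 to 68906932) stood at 12.16, 11.34 and 11.97 FPKM in Msx1 libraries against 14.0, 19.5 and 15.6 FPKM in control libraries. Control replicate 2 stood above the rest, and the log2 change of -0.42 (SE 0.11, adjusted p = 0.0119) lost its call with equal totals without Msx1 (-0.32, adjusted p = 0.0717).

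**Figure D4:**
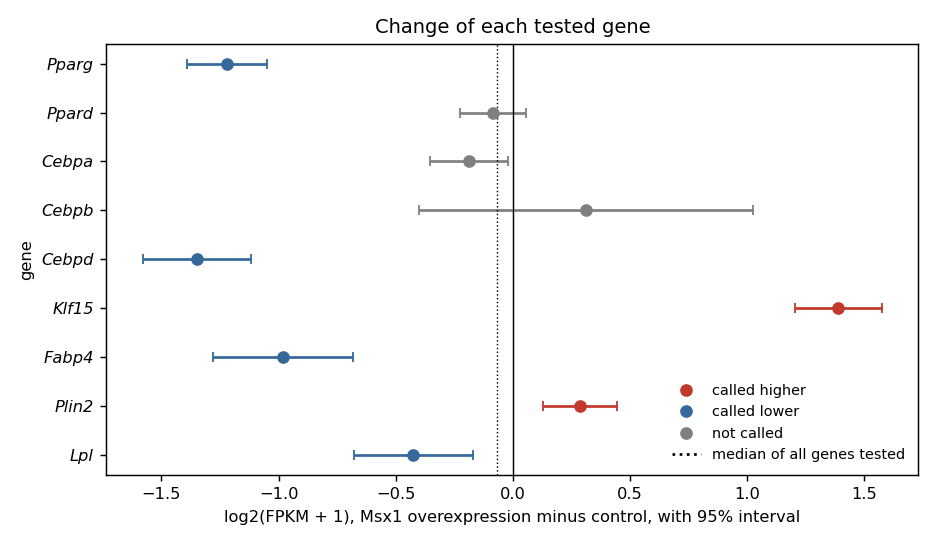
Log2 change of the 9 tested genes, Msx1 overexpression minus control, with 95% intervals from limma. The dotted line is the median of all genes tested (-0.07). Intervals of Ppard and Cebpb cross 0, and that of Cebpb runs from -0.40 to 1.02.

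The order of levels in Msx1 cells ran Plin2, Cebpb, Cebpd, Ppard, Cebpa, Lpl, Klf15, Pparg, Ppara and Fabp4, and the ranges of neighbours overlapped only for Ppara and Fabp4. In control cells it ran Plin2, Cebpd, Cebpb, Ppard, Cebpa, Lpl, Pparg, Klf15, Fabp4 and Ppara, and neighbours overlapped for Cebpd and Cebpb, for Cebpa and Lpl, and for Klf15 and Fabp4. Klf15 thus stood above Pparg in all 3 Msx1 libraries and below it in all 3 control libraries.

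Of 13 tested partners and coregulators of the PPARs 6 rose and 0 fell, beside 22.0% higher and 32.4% lower over all genes tested, with a median change of 0.23 beside -0.07. The 6 include Ppargc1a, at 0.930, 1.01 and 0.824 FPKM in Msx1 libraries against 0.180, 0.310 and 0.307 FPKM in control libraries. Ppargc1a reached the minimum for the fit only through its Msx1 libraries, so its call is not separate support. With a minimum mean of 2 FPKM, 5 of 11 were higher and 0 lower. Rxra, the main binding partner of PPARs, stood at 31.2, 30.6 and 30.6 FPKM in Msx1 libraries against 24.6, 23.7 and 24.3 FPKM in control libraries (log2 change 0.34, adjusted p = 4.64e-04). The coactivator gene Ncoa3 rose as well (0.65, SE 0.07). Med1, the Mediator subunit that PPAR-gamma contacts, was at 13.4, 17.3 and 12.6 FPKM in Msx1 libraries against 17.7, 16.7 and 15.3 FPKM in control libraries (adjusted p = 0.17), and was called lower without Msx1 replicate 2 (log2 change -0.33, adjusted p = 0.0151).

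Of 6 tested genes that pair with C/EBPs or lower their activity, 3 were called higher and 1 lower (median change 0.21), and 4 calls of 6 are near the 54.4% called over all genes. Trib3, a stress-induced pseudokinase gene, averaged 10.4 ± 0.407 FPKM in Msx1 and 2.09 ± 0.566 FPKM in control cells (SD, n = 3 each; log2 change 1.90, adjusted p = 7.49e-06). Ddit3, whose product CHOP pairs with C/EBPs and blocks their binding, rose by 0.45 (SE 0.08). Trib1, whose product directs C/EBP-alpha to breakdown, averaged 2.66 ± 0.265 FPKM in Msx1 and 6.52 ± 0.422 FPKM in control cells (SD, n = 3 each; log2 change -1.04, adjusted p = 1.92e-05).

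Of 12 tested genes known to promote fat cell formation, 8 rose and 2 fell (median change 0.46), beside 22.0% higher and 32.4% lower over all genes. Klf5, which acts with C/EBPs at the internal Pparg promoter, averaged 16.4 ± 0.544 FPKM in Msx1 and 7.54 ± 0.30 FPKM in control cells (SD, n = 3 each; log2 change 1.03, adjusted p = 3.17e-06), and Stat5b rose by 0.68 (SE 0.05). The 2 that fell were the early factors Ebf1 (log2 change -1.02, adjusted p = 2.32e-05) and Egr2 (-1.29, adjusted p = 6.75e-05). Of 14 tested genes known to oppose it, 6 rose and 1 fell (median change 0.11), beside the same shares. The Notch target Hes1 (1.94, SE 0.10) and the Wnt ligand gene Wnt10b (0.90, SE 0.07) were higher. Klf2, a repressor of Pparg in fat cell precursors, averaged 3.24 ± 0.429 FPKM in Msx1 and 13.7 ± 2.23 FPKM in control cells (SD, n = 3 each; log2 change -1.79, adjusted p = 1.05e-05), so it fell together with Pparg. Klf7, at -0.20 (adjusted p = 0.0941), was also called lower without Msx1 replicate 2 (-0.28, adjusted p = 0.0389).

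**Figure D5:**
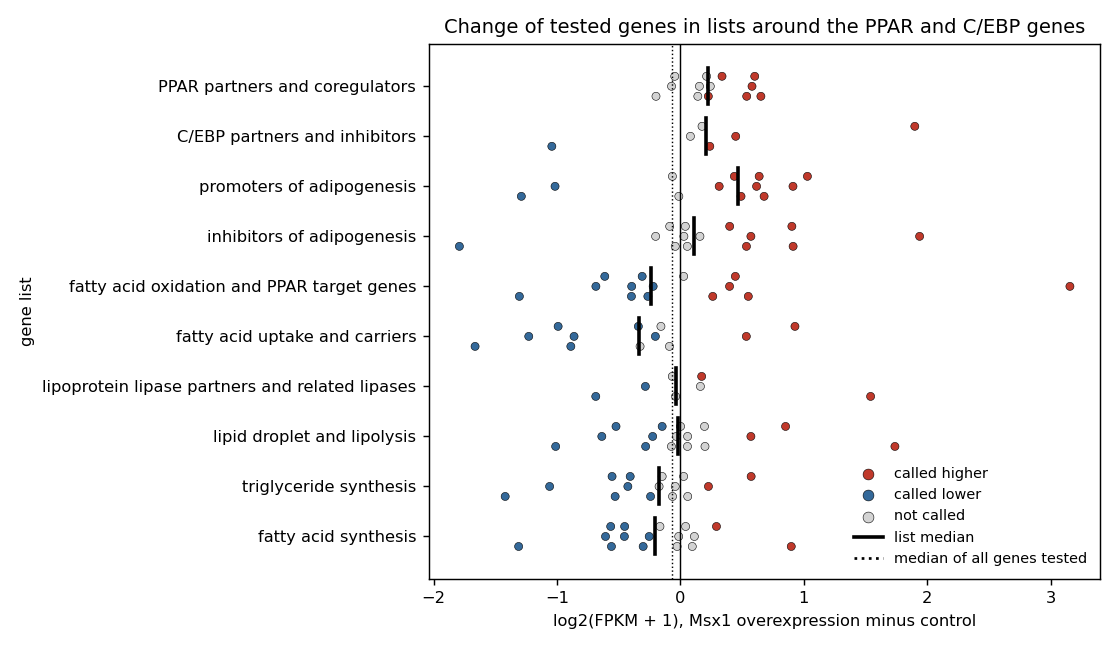
Log2 change of the tested genes of 10 lists, 1 point per gene (red called higher, blue called lower, grey not called), with a thick bar at the list median and a dotted line at the median of all genes tested. Medians run from -0.33 for fatty acid uptake to 0.46 for promoters of adipogenesis, and most lists hold calls in both directions.

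Fatty acid oxidation genes, many of them PPAR targets, were called lower in 8 of 14 and higher in 5 (median change -0.24), beside 32.4% lower and 22.0% higher over all genes. Pdk4, which holds back glucose oxidation and is a PPAR target, rose by 0.55 (SE 0.07). The 8 that fell include Acadm (log2 change -1.30, SE 0.08) for medium-chain fatty acids and Cpt1a (-0.69, SE 0.05), which admits long-chain fatty acids to mitochondria. Not all enzyme genes of the list fell, as Hadhb did not pass (0.026, adjusted p = 0.75) and Acot2 rose (0.445, adjusted p = 0.0015).

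Among genes of fatty acid uptake and transport, 7 of 12 fell and 2 rose (median change -0.33), beside 32.4% lower and 22.0% higher over all genes. Fabp5, the relative of Fabp4 found in many cell types, stood at 4.16, 3.92 and 4.44 FPKM in Msx1 libraries against 18.1, 13.2 and 15.2 FPKM in control libraries (log2 change -1.66, SE 0.11, adjusted p = 7.25e-06). Fabp3, the form of heart and muscle, was at 4.37, 3.93 and 5.83 FPKM in Msx1 libraries against 6.74, 4.03 and 8.17 FPKM in control libraries and did not pass (adjusted p = 0.239). The transporter genes split, with Slc27a1 higher (0.93, SE 0.06) and Slc27a3 lower (-1.23, SE 0.06), and the receptor gene Lrp1 was higher (0.53, SE 0.08).

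Partners of lipoprotein lipase gave 2 higher and 2 lower calls of 7 tested (median change -0.04), near the 54.4% called over all genes. Apoc2, which encodes the activator of the enzyme, was at 1.12, 2.19 and 2.65 FPKM in Msx1 libraries and listed at 0 in all control libraries (adjusted p = 2.21e-04). It reached the minimum for the fit through its Msx1 libraries alone, so its call is not separate support for the rise. Vldlr, a receptor for triglyceride-rich particles, fell (log2 change -0.69, adjusted p = 0.00202). Sel1l, needed for the enzyme to leave the endoplasmic reticulum, rose by 0.17 (adjusted p = 0.0167), and the related lipase gene Lipg fell by 0.28 on the log2 scale (adjusted p = 0.0174). These 2 calls were weak, and Lipg reached the minimum for the fit only through its control libraries. Sel1l missed the threshold without Msx1 replicate 1 (adjusted p = 0.0686), Msx1 replicate 2 (0.0633) or control replicate 3 (0.0506). Lipg missed it without Msx1 replicate 2 (adjusted p = 0.0611), Msx1 replicate 3 (0.0505), control replicate 2 (0.0532) or control replicate 3 (0.0573). Angptl4, a PPAR target that inhibits the enzyme, was at 27.5, 28.1 and 29.9 FPKM in Msx1 libraries against 27.6, 25.0 and 23.5 FPKM in control libraries (adjusted p = 0.0784), and passed without control replicate 1 (log2 change 0.22, adjusted p = 0.012), under all 3 other scalings (0.20 to 0.27) and with sample weights (0.24).

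Of 16 tested genes of the lipid droplet and of lipolysis 3 rose and 6 fell (median change -0.02), near the 22.0% higher and 32.4% lower over all genes. Mgll, the monoglyceride lipase gene, rose, at 5.34 ± 0.276 FPKM in Msx1 and 0.902 ± 0.149 FPKM in control cells (SD, n = 3 each; log2 change 1.74, adjusted p = 1.34e-06), and so did Pnpla2, which starts triglyceride breakdown (0.85, SE 0.06). Lipe did not pass (0.06, SE 0.08, adjusted p = 0.579). Cav1, the caveolin of surface pits (-1.01, SE 0.09), and the perilipin gene Plin4 (-0.64, SE 0.07) fell. Among the perilipin genes, Plin2 rose, Plin4 fell, Plin1 was listed at 0 and Plin5 did not exceed 0.0448 FPKM in any library. Plin3 was at 57.5, 55.8 and 56.9 FPKM in Msx1 libraries against 66.6, 59.6 and 62.9 FPKM in control libraries, and its lower call (adjusted p = 0.0498) was lost under all 3 other scalings (adjusted p = 0.109 to 0.523).

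In triglyceride synthesis 7 of 15 fell and 2 rose (median change -0.17), beside 32.4% lower and 22.0% higher over all genes, with Dgat2, an enzyme gene of the last step (-1.06, SE 0.08), and Mogat2, which makes diacylglycerol (-1.42, SE 0.07), lower and Agpat3 (0.23, SE 0.05) and Lpin1 (0.57, SE 0.14) higher. In fatty acid synthesis 8 of 16 fell and 2 rose (median change -0.21), beside the same shares. The desaturase genes Scd1 (-1.31, SE 0.07) and Scd2 (-0.61, SE 0.07) were lower, and Mid1ip1, an activator of acetyl-CoA carboxylase (0.90, SE 0.07), and Fads3 (0.29, SE 0.06) were higher. Adjusted p for the genes of this paragraph lay between 2.12e-06 and 0.0103.

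Markers of fat cells were low in both groups. Adipoq, the adiponectin gene, was at 0.27, 0.82 and 0.59 FPKM in Msx1 libraries and listed at 0 in all control libraries, and Cfd, the adipsin gene, was at 0.641, 0.855 and 0.513 FPKM in Msx1 libraries and likewise listed at 0 in control libraries. Both were below the minimum for the fit. Slc2a4, the insulin-sensitive glucose transporter gene of fat and muscle, was at 0.176, 0.115 and 0.15 FPKM in Msx1 against 0.391, 0.399 and 0.378 FPKM in control libraries. Ucp1 and Prdm16, which mark brown fat, were listed at 0 in every library. The 5 osteoblast markers summed to 82.7 to 87.1 FPKM in Msx1 and 18.0 to 19.2 FPKM in control libraries. Most of the Msx1 sum came from Alpl, at 59.9 to 64.0 FPKM in Msx1 and 0.326 to 0.775 FPKM in control libraries. Runx2 (17.3 to 18.7 FPKM in Msx1 and 13.5 to 15.8 FPKM in control libraries) was also called higher. So was Bglap (4.69 to 5.69 FPKM in Msx1 and 2.65 to 3.93 FPKM in control libraries). Ibsp was listed at 0 in every library, and Sp7 did not exceed 0.162 FPKM in any. The 5 macrophage markers summed to 12.6 to 13.9 FPKM in Msx1 and 20.9 to 22.8 FPKM in control libraries. Of these, the pan-leukocyte gene Ptprc and the macrophage gene Adgre1 were at 0. The 4 endothelial markers summed to at most 0.878 FPKM in every library, and 4 chondrocyte markers summed to 22.9 to 25.6 FPKM in Msx1 and 23.5 to 24.0 FPKM in control libraries. Most of the chondrocyte sum came from Sox9, at 21.8 to 24.4 FPKM in Msx1 and 22.8 to 23.2 FPKM in control libraries. Acan did not exceed 0.0129 FPKM and Col2a1 did not exceed 0.333 FPKM in any library. Comp was at 0.875 to 1.07 FPKM in Msx1 and 0.449 to 0.510 FPKM in control libraries. The part of these cell states in the results on the fat genes was not tested.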

How the data were processed

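RNA of 6 C2C12 libraries was sequenced, 3 with Msx1 overexpression and 3 controls. The submitters' processing notes name the tools Trimmomatic, HISAT2 and StringTie and the build GRCm38/mm10, without versions; settings are not stated. The authors deposited FPKM per RefSeq transcript for 38468 transcripts. Control columns name a vector and were matched to control titles by number. Symbols came from RefSeq for 38193 transcripts and from GENCODE M21 for 156 more, and 119 without a symbol kept their identifiers. FPKM were summed per symbol to 24809 genes. StringTie estimates how reads divide among overlapping transcripts, and a few very abundant transcripts lower the FPKM of all others in a library.

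Genes averaging 0.5 FPKM or more were tested in limma 3.58.1 under R 4.3.3, using log2(FPKM + 1), limma's trend option and p-values adjusted by Benjamini-Hochberg over all genes tested, at 0.05. Single values used exact two-sided permutation tests, in python 3.11.15. Depth was read from the most frequent value of a single fragment in transcripts of known length, and whole reads were not recovered. Fragment numbers use GENCODE lengths and are rough. All 10 members are named, and from each list up to 2 higher and 2 lower calls with the smallest adjusted p, with other genes named after their values were seen. Some genes that this rule names are not reported here. Members and lists were chosen with earlier results of these data known. Alternatives are given with the results on processing.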

Additional observations from a re-analysis of the deposited data

How the results depend on the processing

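All 4 counts (all genes and the 10 members, higher and lower) stayed within 1.5 times their value in all 17 alternatives. Members called higher numbered 2 to 3 and members called lower 3 to 6. Pparg, Cebpd, Klf15 and Plin2 kept direction and call in all 17 and Fabp4 in the 16 that tested it. Ppard was 0.0228 with equal totals without Msx1, the single change of sign. Lpl lost its call there. Ppard and Cebpa gained a call after the length and GC correction (chosen after seeing the data, with both properties known for 97.2% of genes), Cebpa without control replicate 3, and Cebpb without control replicate 1 and with sample weights; the cause was not tested. Leaving out 1 library at a time gave 2266 to 2847 genes higher and 3296 to 4243 lower, and 2 to 3 members higher and 4 to 5 lower. Higher calls made up 40.4% of all calls (2718 higher, 4014 lower), 51.3% after median-of-ratios scaling (3321 and 3155), 45.8% after quantile normalization (3073 and 3633) and 55.5% with equal totals without Msx1 (3503 and 2807). The replicate block gave 2692 genes higher and 4055 lower, with 2 members higher and 4 lower, and same-numbered libraries correlated at 0.055, 0.226 and 0.037 in their deviations from the group means. With the most abundant transcript standing for each gene, 5 in place of 8 promoters of adipogenesis were higher. Over the 17 alternatives, inhibitors of adipogenesis had 1 to 3 lower calls and lipoprotein lipase partners 1 to 3 higher and 1 to 3 lower. Lipid droplet genes had 3 to 5 higher calls, triglyceride synthesis 1 to 3 higher and 6 to 10 lower, and fatty acid uptake 6 to 10 lower. Partners and coregulators of the PPARs had 4 to 9 higher and 0 to 1 lower. After the length and GC correction, 4 of these partners were higher and 1 lower, with a median change of 0.07. Depth limits Fabp4 and Ppara, which rest on few fragments.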

Other observations

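Across the 6 libraries, the tested genes whose log2(FPKM + 1) followed Pparg most closely were Nrn1, Car8 and Ptgs2 (Pearson r = 0.9999, 0.9999 and 0.9997 over 6 libraries). This is a description, as the points share libraries and the 2 groups set most of each r, and 1661 genes reached an r of at least 0.95. Ptgs2, the inducible cyclooxygenase gene, stood at 1.77, 1.83 and 2.11 FPKM in Msx1 libraries against 11.2, 14.6 and 11.8 FPKM in control libraries. Car8 stood at 0.524, 0.581 and 0.63 FPKM in Msx1 libraries against 4.02, 4.94 and 4.18 FPKM in control libraries. Nrn1, which encodes neuritin, stood at 16.9, 17.0 and 17.2 FPKM in Msx1 libraries against 24.7, 26.2 and 24.8 FPKM in control libraries. In each of the 3, control replicate 2 was the highest library, as it was for Pparg. The 3 were picked by their r with Pparg, so this shared order is not a separate observation.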
